A study of Mus musculus with 6 samples.

Results

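The genes described here are 10 genes of bone morphogenetic protein (BMP) signalling and its Id targets: the receptors Bmpr1a, Bmpr2 and Acvr1, the signal transducers Smad1, Smad4 and Smad5, the inhibitory Smad6, and Id1, Id2 and Id3. They were chosen by gene symbol from the table of transcription start windows, in which all 10 had a row among 49366 genes. None of the 10 windows passed the test for a difference between muscle nuclei treated with Yap-shRNA and LacZ-shRNA, nor did any of the 33 accessible peaks at these genes. The values that leaned furthest upward with Yap-shRNA were those of Id3 and of a peak beside Id2. The assay was ATAC-seq, which reads where a transposase can enter the chromatin. It was applied to muscle nuclei sorted for PCM1, a protein at the envelope of myonuclei, from male C57BL/6J mice treated at 8 weeks. Contralateral hindlimb muscles of each mouse received an AAV6 vector coding for a short hairpin RNA against lacZ (LacZ-shRNA, a bacterial gene that mice lack) or against Yap (Yap-shRNA), and were examined 28 days later. Each group had 3 replicates, and each replicate pooled 4 gastrocnemius and 4 tibialis anterior muscles, so that a replicate is not a single animal and the differences between animals were averaged before sequencing. The Yap-shRNA was cloned into a plasmid with a CMV promoter and eGFP, whereas the backbone of the control hairpin is not given in the sources used here. Both groups therefore carried a virus, and no untreated muscle was analysed here. In such pooled nuclei, fewer nuclei open at a site and less opening per nucleus cannot be told apart.

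BMP ligands bind pairs of type I receptors (Bmpr1a and Acvr1 among them) and type II receptors such as Bmpr2. The type I receptor phosphorylates Smad1 and Smad5, which enter the nucleus with the common partner Smad4 and bind GC-rich elements beside a Smad box. Id1, Id2 and Id3 are classical targets whose proteins hold E-box transcription factors such as MyoD off DNA, and Smad6 is a target that feeds back to block Smad1 and Smad5. In adult muscle, BMP signalling is known to sustain fibre size, particularly after loss of the nerve.

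The window table held between 3326803 and 10319467 counts per library and the peak table between 2588520 and 6871176. Depth differed between groups. Window totals were 5431766, 3326803 and 8964441 with LacZ-shRNA and 9560705, 10319467 and 8622014 with Yap-shRNA. Muscle fibre marker windows had a median of 18.7 CPM (counts scaled to a common library size) per kb of window against 4.45 over all windows, and the other cell type lists lay between 3.63 and 7.61. The design text of the series names cardiomyocytes, whereas the samples are labelled skeletal muscle, and the window list of cardiomyocyte markers had a median of 6.64 CPM per kb. The window of Yap1, the gene targeted by the hairpin, measured 12.1, 16.7 and 14.1 CPM with LacZ-shRNA and 14.7, 16.5 and 12.1 CPM with Yap-shRNA. A hairpin acts on RNA, so this window does not test the knockdown.

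A sequence element was also searched, and it was not chosen independently of the genes. It is a BMP-responsive element, and the Id genes are classical BMP targets, so the shares below are a description and not a test. A spaced BMP-responsive element, GGCGCC followed after any 5 bases by GTCT and searched on both strands of GRCm38, occurred at 6 sites within 5 kb of the 5′ start of a member or in its peaks, and these 6 sites lay at Id1, Id2 and Id3 and at 0 of the other 7 members. The same letters occurred within 5 kb of the start of 193 of 49324 genes (0.391%) and 115 of 20508 protein-coding genes (0.561%). Of the 6 sites, 3 lay in listed peaks. By peak, 3 of the 33 member peaks (9.09%) held the element, against 58 of 35982 peaks with sequence (0.161%). A match is a description of the letters, not evidence of binding. The sites are shown because they were found at every Id member and at no receptor or Smad member. Each line gives 95 bases of GRCm38, read in the orientation of the element, with capitals for the 2 boxes. The numbers before the sequences are bases from the 5′ start of the gene, where negative is upstream.
Id1, 3227, chr2:152739431-152739525, plus strand, no listed peak: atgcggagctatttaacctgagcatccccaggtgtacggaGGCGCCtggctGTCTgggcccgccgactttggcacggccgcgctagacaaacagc
Id2, -1721, chr12:25098814-25098908, minus strand, in a listed peak: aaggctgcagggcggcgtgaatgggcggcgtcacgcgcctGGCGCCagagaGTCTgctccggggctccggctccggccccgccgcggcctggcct
Id2, 4089, chr12:25093004-25093098, minus strand, no listed peak: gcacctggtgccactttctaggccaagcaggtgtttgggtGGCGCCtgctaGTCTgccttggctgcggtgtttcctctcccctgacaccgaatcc
Id3, -2950, chr4:136140500-136140594, plus strand, in a listed peak: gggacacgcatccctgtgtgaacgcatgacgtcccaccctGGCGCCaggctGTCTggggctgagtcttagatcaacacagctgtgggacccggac
Id3, 1303, chr4:136144753-136144847, plus strand, in an intron, no listed peak: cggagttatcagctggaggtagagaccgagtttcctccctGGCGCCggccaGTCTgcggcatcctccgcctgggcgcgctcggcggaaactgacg
Id3, 4491, chr4:136147941-136148035, plus strand, in a listed peak: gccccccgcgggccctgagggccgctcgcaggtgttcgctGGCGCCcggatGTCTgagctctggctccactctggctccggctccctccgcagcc

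The box GGCGCC alone was common. It occurred in all 9 promoter peaks of the members and in 48.8% of the 12716 peaks within 1 kb of any start, with a GC content of 57.2% to 73.3% in the member peaks and a median of 58.9% in all promoter peaks. The palindromic Smad box GTCTAGAC occurred in 1 member peak, where it spans the start of Smad6, and in 0.670% of all peaks. It is shown because Smad6 is itself a BMP target.
Smad6, chr9:64022045-64022074, plus strand: atcatatgccaGTCTAGACactttggcggc
The TEAD motif ACATTCC, the site of the factors through which Yap reaches DNA, occurred in 4 of 33 member peaks (12.1%) and in 8.96% of all peaks. The 4 peaks were the Smad4 promoter, the peaks 49.4 kb and 39.3 kb upstream of Id1, and the peak 3.1 kb downstream of the nearest Id3 start. Those upstream of Id1 lie over H13 and cover a start of another gene, Mcts2 at 49.4 kb and Gm26841 at 39.3 kb. Their assignment to Id1 rests on distance alone.

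Accessibility differed widely among the members. Per kb of window, averaged over all 6 libraries, Smad6 was highest with 14.8 CPM per kb, at percentile 97.2 of all windows. It was followed by Id3 with 11.2, Bmpr1a with 10.7, Bmpr2 with 9.50, Id2 with 8.89, Id1 with 8.09, Smad1 with 7.59, Smad4 with 5.61, Acvr1 with 3.55 and Smad5 with 2.78 CPM per kb. The steps from Smad6 to Id3, from Smad1 to Smad4, from Smad4 to Acvr1 and from Acvr1 to Smad5 held in 6 of 6 libraries. Id3 was above Bmpr1a in 3 of 6 libraries, Bmpr2 above Id2 in 4 of 6 and Id2 above Id1 in 4 of 6, so that the middle of this order did not separate beyond the spread. The order also depended on how reads were assigned. Windows are unions of 1 kb to either side of every annotated start, and featureCounts by default leaves reads in a stretch shared with another gene out of both. The windows of Bmpr1a, Acvr1 and Smad5 overlap those of other genes, and for these genes the promoter peak held 104.3%, 131.9% and 227.8% of the counts of the window.

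On promoter peaks, which are not shared between genes in this way, the receptors and Smads came closer together. Bmpr1a had 41.9 CPM per kb of peak, Smad6 33.9, Id3 30.8, Acvr1 29.7, Bmpr2 28.5, Smad1 28.3, Smad4 27.5, Smad5 26.2 and Id2 22.8. Smad5, lowest by window, was thus close to Smad4 and Smad1 by promoter peak. The 9 promoter peaks lay between percentiles 43.7 and 90.7 of all promoter peaks by level. Id1 had no listed peak in its window, at 8.09 CPM per kb. The window of Ckm, the muscle creatine kinase gene, had none either. It held 146 to 193 CPM, where the Id1 window held a mean of 16.2 CPM, neither divided by length. The lack of a listed peak thus does not by itself mean closed chromatin, but Ckm does not show how open the Id1 start is. By the paper, peaks detected in a single sample were also left out of the list.

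**Figure D1:**
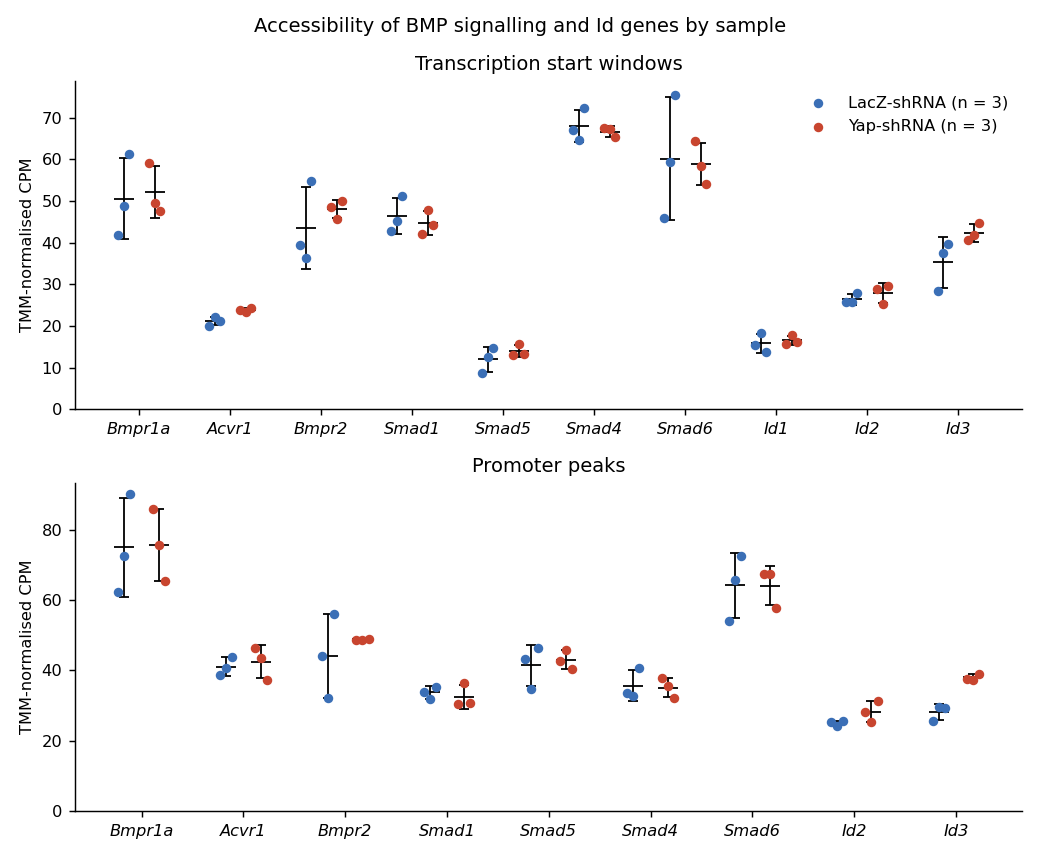
Accessibility (TMM-normalised CPM) of the 10 member windows (upper panel) and 9 promoter peaks (lower panel; Id1 has none) by sample, with blue points for LacZ-shRNA, red points for Yap-shRNA and black marks for the mean and SD of each group of 3. In the upper panel the 3 Yap-shRNA values lie above the 3 LacZ-shRNA values at Acvr1 and Id3, and in the lower panel at Id3.

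Among the receptors, each window had a positive fold change with a 95% interval that included 0. Bmpr1a (ENSMUSG00000021796, chr14:34410734-34503341), the type I receptor used by BMP2 and BMP4, measured 41.8, 48.7 and 61.2 CPM with LacZ-shRNA and 59.2, 49.5 and 47.5 CPM with Yap-shRNA, with a log2 fold change of 0.030 ± 0.14 (SE, n = 3 per group) and an adjusted p of 0.990. Bmpr2 (ENSMUSG00000067336, chr1:59763400-59879014), the type II receptor, measured 39.4, 36.2 and 54.7 CPM against 48.5, 45.6 and 49.95 CPM, a log2 fold change of 0.11 ± 0.14 (adjusted p = 0.963) that was 0.0095 without LacZ-shRNA replicate 1, 0.017 without replicate 2 and 0.34 without replicate 3. In both genes the groups overlapped, and LacZ-shRNA replicate 3 was the highest of its group. Acvr1 (ENSMUSG00000026836, chr2:58388644-58567157), a type I receptor also known as ALK2, measured 20.1, 22.1 and 21.2 CPM against 23.8, 23.3 and 24.3 CPM. All Yap-shRNA values were above all LacZ-shRNA values, by a log2 fold change of 0.18 ± 0.15 whose 95% interval ran from -0.12 to 0.48 (adjusted p = 0.951).

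Of the Smad windows, 3 had a log2 fold change below 0 and 1 above, all with 95% intervals that included 0. Smad1 (ENSMUSG00000031681, chr8:79338395-79399518), a transducer of the BMP signal, measured 42.7, 45.2 and 51.3 CPM with LacZ-shRNA and 42.1, 47.8 and 44.3 CPM with Yap-shRNA, a log2 fold change of -0.061. Smad5 (ENSMUSG00000021540, chr13:56703010-56742377), the other such transducer here, had the fewest counts and the widest interval, with 8.68, 12.5 and 14.7 CPM against 12.9, 15.7 and 13.2 CPM (log2 fold change 0.21 ± 0.19). Its fold change was 0.0041 without LacZ-shRNA replicate 1, 0.45 without LacZ-shRNA replicate 3 and 0.11 without Yap-shRNA replicate 2. Both genes overlapped between groups. Smad4 (ENSMUSG00000024515, chr18:73639009-73703780), the partner shared with TGF-β signalling, had the narrowest range of the Smads for its level, with 67.1, 64.7 and 72.2 CPM against 67.5, 67.1 and 65.3 CPM (log2 fold change -0.035). Smad6 (ENSMUSG00000036867, chr9:63953076-64022059) spread most within LacZ-shRNA, with 45.8, 59.3 and 75.4 CPM against 64.3, 58.3 and 54.1 CPM (log2 fold change -0.042). Its control replicates thus spanned all 3 Yap-shRNA values.

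The Id windows were each slightly higher on average with Yap-shRNA, and Id3 had the largest fold change of the 10 members. Id1 (ENSMUSG00000042745, chr2:152736251-152737410) measured 15.4, 18.3 and 13.8 CPM with LacZ-shRNA and 15.7, 17.8 and 16.2 CPM with Yap-shRNA (log2 fold change 0.10 ± 0.17). Id2 (ENSMUSG00000020644, chr12:25093799-25097140) measured 25.7, 25.6 and 27.9 CPM against 28.9, 25.1 and 29.6 CPM (log2 fold change 0.068). Both overlapped between groups. Id3 (ENSMUSG00000007872, chr4:136143497-136145755) measured 28.4, 37.5 and 39.8 CPM against 40.5, 41.9 and 44.7 CPM, with no overlap between groups. Its log2 fold change was 0.26 ± 0.14, with a 95% interval of -0.023 to 0.55 and an adjusted p of 0.946 by edgeR. It was 0.12 without LacZ-shRNA replicate 1, the lowest library, and 0.39 without LacZ-shRNA replicate 3.

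In total, 0 of 10 member windows passed an adjusted p of 0.05 by the edgeR quasi-likelihood test, and 0 had an unadjusted p under 0.05, also by the likelihood-ratio test and by DESeq2. With library size alone or with an offset on abundance, 1 window (Id3) had an unadjusted p under 0.05. Without LacZ-shRNA replicate 3 there were 2 (Bmpr2 and Id3), and without LacZ-shRNA replicate 1 there was 1 (Smad6, lower). Over all windows 0.0223% were called (0.00203% higher and 0.0203% lower with Yap-shRNA) and 4.9% had an unadjusted p under 0.05. The groups did not overlap at 2 of 10 members, with Yap-shRNA above in both, against 10.1% of all windows (5.31% with Yap-shRNA above and 4.79% below). The median log2 fold change was 0.086 over the members and -0.014 over all windows, and 7 members against 47.3% of all windows were above 0. The 95% intervals of the 10 members spanned -0.34 to 0.58, so that larger differences lay outside them.

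**Figure D2:**
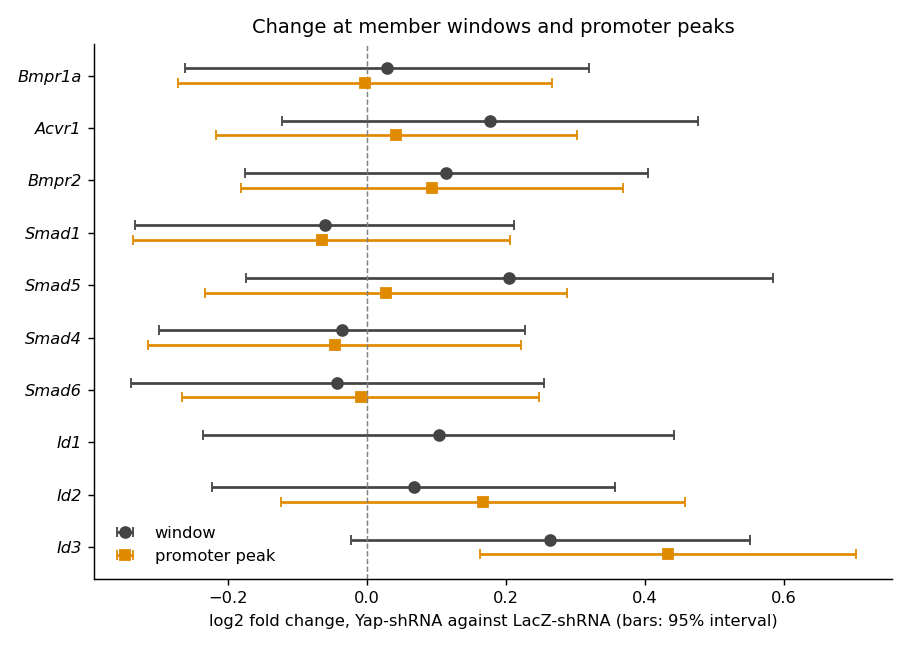
Log2 fold change (x axis, Yap-shRNA against LacZ-shRNA) with its 95% interval (bars) for the 10 member windows (circles) and 9 promoter peaks (squares), with 3 samples per group and a dashed line at 0. All 10 window intervals include 0, and the Id3 promoter peak is the promoter peak whose interval, 0.16 to 0.70, does not.

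Peaks of the members were taken as those over the gene or within 50 kb of a start, which gave 33 of 36097 peaks: 9 at promoters, 10 elsewhere over the gene and 14 in the flanks. A flanking peak may belong to another gene. Distances to peaks are from the peak centre to the nearest annotated transcript start. By edgeR, 0 of the 33 passed an adjusted p of 0.05, against 0.618% of all peaks (0.0471% higher and 0.571% lower). An unadjusted p under 0.05 was reached by 4 member peaks, 3 higher and 1 lower with Yap-shRNA, against 8.9% of all peaks (3.59% higher and 5.31% lower). DESeq2 called 0 and gave 3 with an unadjusted p under 0.05. The groups did not overlap at 1 member peak (Yap-shRNA above), against 13.3% of all peaks (6.55% with Yap-shRNA above and 6.76% below). The median log2 fold change was 0.058 over the member peaks and -0.0026 over all peaks.

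The 3 peaks that were higher at an unadjusted p under 0.05 by edgeR lay at Id2 and Id3. Of all 33 member peaks, 23 had a log2 fold change above 0 and 10 below. The Id3 promoter peak (chr4:136143365-136144437) measured 25.5, 29.7 and 29.2 CPM with LacZ-shRNA and 37.6, 37.4 and 39.0 CPM with Yap-shRNA, or 28.1 ± 2.31 against 38.0 ± 0.905 (SD, n = 3). The groups were apart and the Yap-shRNA values close together. The log2 fold change was 0.43 ± 0.13 (SE), with a 95% interval of 0.16 to 0.70 and an adjusted p of 0.165 by edgeR. When libraries were scaled by their size alone, the log2 fold change was 0.57 and the adjusted p 0.0470, the only alternative that called a member, and over all alternatives run the adjusted p ranged from 0.0470 to 0.532. That scaling leaves out the TMM factors, which for peaks did not overlap between groups. They were 0.955, 0.910 and 0.988 with LacZ-shRNA and 1.06, 1.07 and 1.03 with Yap-shRNA. Without them the median of all peaks moved from -0.0026 to 0.14. The calls over all peaks moved from 17 higher and 206 lower to 124 higher and 105 lower. This peak lies in the Id3 window and shares its reads, so the window is not a second measurement.

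The peak 3.1 kb downstream of the nearest Id3 start (chr4:136147518-136148702), which holds the element at 4491 bases printed above and a TEAD motif, measured 28.8, 29.7 and 39.6 CPM with LacZ-shRNA and 44.0, 42.4 and 38.9 CPM with Yap-shRNA. The groups overlapped at LacZ-shRNA replicate 3. Its log2 fold change was 0.32 ± 0.14 (adjusted p = 0.438 by edgeR), and 0.52 without that library. The peak 1.6 kb upstream of Id2 (chr12:25098199-25099202), which holds the element at -1721, measured 13.1, 12.3 and 17.4 CPM against 18.7, 24.7 and 17.4 CPM. Yap-shRNA replicate 2 was the highest, and replicate 3 of the 2 groups nearly coincided. Its log2 fold change was 0.46 ± 0.18 (adjusted p = 0.373 by edgeR), and 0.29 without Yap-shRNA replicate 2. The third peak with an element, 3.0 kb upstream of Id3, had a log2 fold change of 0.20 (adjusted p = 0.892), and the Id2 promoter peak had 0.17 (adjusted p = 0.830). The peak 35.7 kb downstream of Id3, which lies over E2f2, had a log2 fold change of -0.14.

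The 1 peak that was lower at an unadjusted p under 0.05 by edgeR lay 45.8 kb upstream of Bmpr1a (chr14:34548155-34550166). It is within Ldb3, a gene of the muscle Z-disc, and its assignment to Bmpr1a rests on distance alone. It measured 93.6, 166 and 124 CPM with LacZ-shRNA and 101, 88.2 and 102 CPM with Yap-shRNA, where LacZ-shRNA replicate 2 was the highest and replicate 1 lay among the Yap-shRNA values. Its log2 fold change was -0.38 ± 0.15 (adjusted p = 0.346 by edgeR), -0.17 without LacZ-shRNA replicate 2 and -0.23 with library size alone. Another peak within Ldb3, 25.7 kb upstream of Bmpr1a and named after its values were seen, went the other way, with 12.5 ± 2.92 CPM against 16.8 ± 1.95 CPM (SD, n = 3) and overlapping groups (log2 fold change 0.36 ± 0.19, adjusted p = 0.605). By gene group, the 23 peaks of the receptors and Smads had a median log2 fold change of 0.028, with 14 above 0. The median was 0.058 for the 4 peaks of Id1, 0.31 for the 2 of Id2 and 0.26 for the 4 of Id3. The difference between these groups was not tested.

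For the remaining members, the peak outside the promoter with the smallest p-value had a log2 fold change of 0.35 at Smad5 (12.2 kb downstream of a start, adjusted p = 0.580 by edgeR), 0.20 at Bmpr2, -0.16 at Acvr1, 0.16 at Smad4, 0.17 at Smad6 and 0.13 at Id1. Smad1 had a promoter peak and no other. The 4 peaks of Id1 all lay in its flanks, with log2 fold changes of 0.019 to 0.13. Those at 49.4 kb and 39.3 kb upstream lie over H13, and the one 49.6 kb downstream lies over Bcl2l1. Standard errors ran from 0.12 to 0.39 for peaks and from 0.13 to 0.19 for windows.

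**Figure D3:**
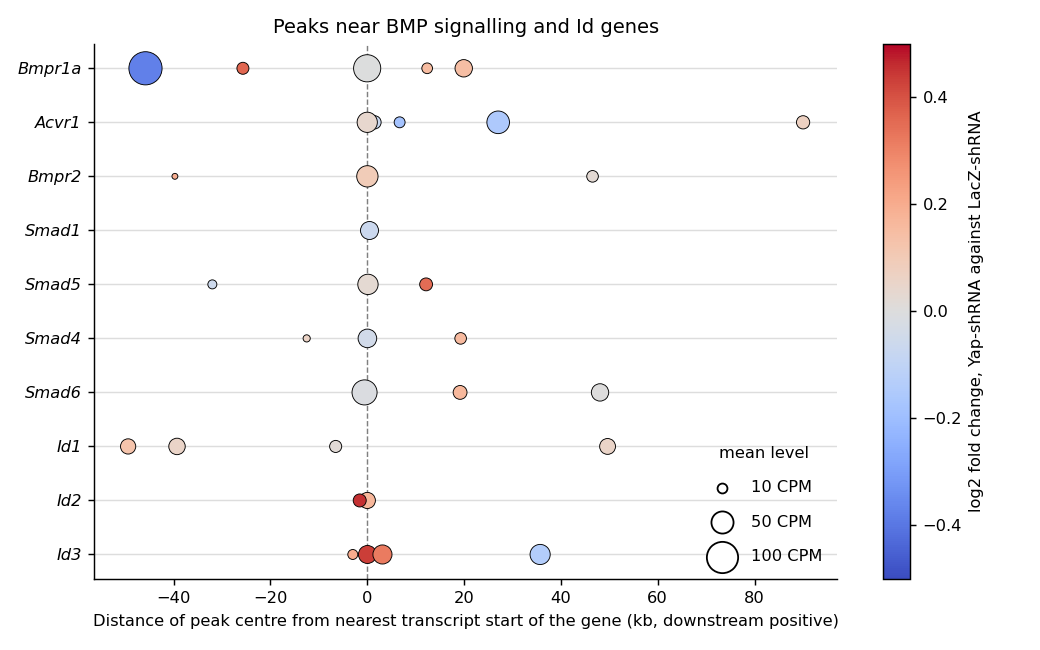
The 33 member peaks by distance of the peak centre from the nearest annotated start of the gene (x axis, kb, downstream positive) and gene (y axis), with colour for the log2 fold change (Yap-shRNA against LacZ-shRNA) and circle area for the mean CPM. The deepest red circles lie beside the starts of Id2 and Id3, and the deepest blue one lies 45.8 kb upstream of Bmpr1a.

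The other genes of the pathway had a median on the other side of 0. The list of 55 symbols held 54 genes, since Hjv and Hfe2 name the same gene, and all 54 had a window. Of these 0 were called, with 0 higher and 4 lower at an unadjusted p under 0.05 (over all windows, 1.9% higher and 3.01% lower). There were 17 log2 fold changes above 0 and 37 below, with a median of -0.066. By role, the median was -0.069 for 13 ligands, -0.094 for 9 receptors and co-receptors, -0.070 for Smad9, Smad7 and Id4, -0.025 for 13 secreted antagonists, -0.066 for 9 intracellular regulators and -0.14 for 7 target genes. The target genes were listed as induced by BMP signalling, except Fbxo30, listed as held down by it in muscle. The Fbxo30 window was low, at 0.629 CPM per kb (log2 fold change 0.059).

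The 4 genes with the smallest p-values are involved at different steps, and none passed the test. Bmp10, a ligand best known from the heart, measured 10.6 ± 1.09 CPM with LacZ-shRNA and 7.47 ± 0.985 CPM with Yap-shRNA (SD, n = 3), without overlap (log2 fold change -0.48 ± 0.21). Grem1, a secreted BMP antagonist, measured 14.1 ± 3.07 against 10.8 ± 0.438 CPM, with overlap (-0.41 ± 0.18). Ppm1a, a phosphatase that acts on Smads, went from 97.8 ± 6.01 to 79.7 ± 6.52 CPM, and Skil, a co-repressor of Smad complexes, from 103 ± 7.74 to 84.5 ± 6.74 CPM, each with a log2 fold change of -0.29 and without overlap. All 4 had an adjusted p of 0.946 by edgeR. With library size alone 1 pathway window had an unadjusted p under 0.05, and it was none of these 4, while over all windows 2303 were higher and 666 lower at that level, against 936 higher and 1484 lower with TMM. Of the 54 pathway windows, the groups did not overlap at 1 with Yap-shRNA above (Fstl1) and at 4 with Yap-shRNA below. Those below were Bmp10, Ppm1a, Skil and Hfe2. Over all windows the shares were 5.31% above and 4.79% below.

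**Figure D4:**
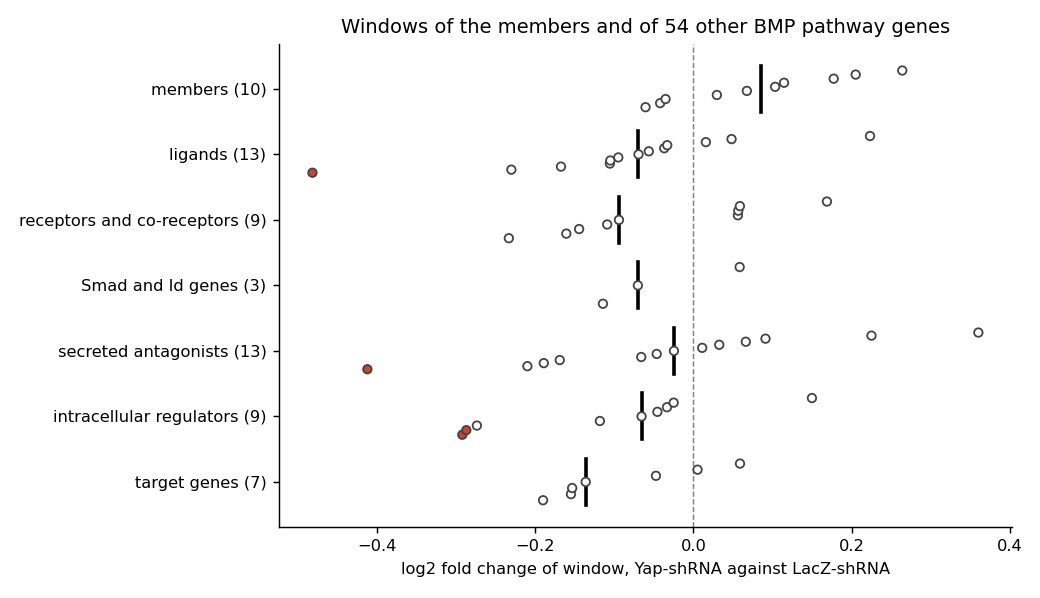
Log2 fold change (Yap-shRNA over LacZ-shRNA) of the windows of the 10 members and 54 other pathway genes by role, with a point per gene, filled where the unadjusted p was under 0.05, and a bar for the median. The 4 filled points are Bmp10, Grem1, Ppm1a and Skil, all below 0.

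Markers of other cell types were read beside these values, since Id genes and BMP receptors are also active in vessels and fibroblasts. The summed windows of 6 endothelial markers lay between 120 and 130 CPM with LacZ-shRNA and between 116 and 124 CPM with Yap-shRNA, with 2 lower and 0 higher at an unadjusted p under 0.05. The 6 fibroblast markers summed to between 168 and 200 CPM against between 191 and 234 CPM, with Col1a1 and Col3a1 higher at an unadjusted p under 0.05 and a median log2 fold change of 0.046 over the list. The 5 leukocyte markers with a window summed to between 84.1 and 99.0 CPM against between 94.0 and 101 CPM, with 1 higher at an unadjusted p under 0.05 and a median log2 fold change of 0.25. The 10 fibre markers summed to between 1141 and 1617 CPM against between 1228 and 1417 CPM. The sums for 6 satellite cell markers (144 to 179 against 147 to 161 CPM), 5 smooth muscle and pericyte markers (69.3 to 77.5 against 69.0 to 77.4 CPM) and 6 cardiomyocyte markers (131 to 156 against 151 to 153 CPM) overlapped between groups, with 1 satellite cell marker lower and 1 cardiomyocyte marker higher at an unadjusted p under 0.05. Over all windows, 1.9% were higher and 3.01% lower at an unadjusted p under 0.05 by edgeR. No marker was called in any list, and no marker window was at 0 in a library. The part of these cells in the values of the Id2 and Id3 peaks was not tested.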

How the data were processed

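ATAC-seq was performed on PCM1+ myonuclei (3 LacZ-shRNA and 3 Yap-shRNA replicates). Per the labels and the submitters' processing notes, the authors aligned reads to GRCm38 with BWA 0.7.17, handled alignments with SAMtools 1.8, called peaks with MACS 1.4.2-1 and counted reads with featureCounts 1.5.0. The paper states that duplicated reads were removed with SAMtools. The deposited values are raw read counts per transcription start window (49366) and per peak (36097), without normalisation, and row means below 10 are absent from both tables. Whether read ends were shifted for the transposase is not given in the sources used here.

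Counts were scaled by TMM and compared with the edgeR 4.0.16 quasi-likelihood test (R 4.3.3), two-sided, with Benjamini-Hochberg adjustment over all rows of each table at 0.05. DESeq2 1.42.0 and limma 3.58.1 (loess offsets, span 0.3) served for alternatives. The test was checked on simulated counts. All 49366 gene identifiers matched GENCODE M21, and sequences were read from RefSeq GRCm38.p6. Windows of 10344 genes (21.0%) overlap the window of another gene. Peaks were assigned to a member if over its gene or within 50 kb of a start, and as promoter peaks within 1 kb. All members were named, with their promoter peak and the other peak of smallest p, and pathway genes with an unadjusted p under 0.05. Members, lists and motifs were chosen with earlier results of these data known. Replicates are pools of muscles, so p-values measure the spread between pools. With 3 against 3, an exact permutation test cannot go below 0.1 and was not used. Replicates of a group differed by more than sampling noise (chi-square per feature of at least 1.95). Library totals of 3326803 to 10319467 window counts gave between 39 and 721 counts per member window and library. Counts carry no molecular identifiers, although the paper states that duplicated reads were removed. By the chi-square above, counting error alone understates the spread.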

Additional observations from a re-analysis of the deposited data

How the results depend on the processing

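No member or pathway window was called under any alternative, and 1 member peak (Id3 promoter) was called when libraries were scaled by size alone, with a log2 fold change of 0.57. DESeq2 gave an adjusted p to 11082 of 49366 windows. Of the features named here, it gave none to the Smad5, Id1, Bmp10 and Grem1 windows. The same held for the peaks at 39.7 kb of Bmpr2, 12.5 kb of Smad4 and 32.0 kb of Smad5. These could not be called by DESeq2 and were counted as not called. Whether replicates of the same number share animals is not given in the sources used here. Same-number correlations were 0.19, -0.12 and 0.092 in windows, which with 3 replicates cannot settle it. The fit with the replicate block called 0 members, with 13 windows and 207 peaks called in all against 11 and 223 without it. Of 655 alternative values for single windows and peaks, 595 kept direction and side of the threshold, 59 changed sign and 1 passed the threshold, and none of those that changed sign was called.

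Under library size alone, the log2 fold change was 0.00093 for the Smad1 window, 0.026 for Smad4 and 0.021 for Smad6, and for peaks 0.14 at the Bmpr1a promoter, 0.068 at 1.5 kb of Acvr1, 0.076 at Smad1, 0.095 at the Smad4 promoter, 0.073 at 32.0 kb from Smad5, 0.13 at the Smad6 promoter and 0.0019 at 35.7 kb from Id3. The abundance offset gave 0.037 at the Bmpr1a promoter, 0.019 at the Smad6 promoter and -0.0064 at 48.1 kb from Smad6. The GC offset gave -0.0010 for the Bmpr1a window, -0.014 at 48.1 kb from Smad6 and -0.0010 at 6.5 kb from Id1. RLE size factors gave -0.0019 at 48.1 kb from Smad6, DESeq2 gave -0.030 at 46.5 kb from Bmpr2, and the replicate block gave 0.0095 at the Bmpr1a promoter and 0.037 at 32.0 kb from Smad5.

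Leaving out 1 library at a time gave windows of Bmpr1a -0.11 to 0.21, Smad1 -0.13 to 0.029, Smad4 -0.065 to 0.013, Smad6 -0.23 to 0.18, Id1 -0.0015 to 0.20, Bmpr2 0.0095 to 0.34, Acvr1 0.14 to 0.20, Smad5 0.0041 to 0.45, Id2 0.026 to 0.14 and Id3 0.12 to 0.39. It gave peaks of Bmpr1a -0.012 to 0.36 (12.4 kb) and -0.13 to 0.18 (promoter), Bmpr2 -0.052 to 0.33 (promoter), -0.10 to 0.48 (39.7 kb) and -0.36 to 0.23 (46.5 kb), Acvr1 -0.21 to 0.21 (90.0 kb), -0.19 to 0.17 (1.5 kb) and -0.026 to 0.11 (promoter), Smad4 -0.11 to 0.21 (12.5 kb) and -0.10 to 0.082 (promoter), Smad5 -0.29 to 0.21 (32.0 kb) and -0.060 to 0.12 (promoter), Smad6 -0.16 to 0.21 (48.1 kb) and -0.12 to 0.11 (promoter), Id1 -0.060 to 0.13 (39.3 kb), -0.18 to 0.31 (6.5 kb) and -0.13 to 0.16 (49.6 kb), and Id3 -0.23 to 0.0032 (35.7 kb). Of the peaks that kept their sign, Id3 ran from 0.37 to 0.48 (promoter) and 0.22 to 0.52 (3.1 kb), Id2 from 0.29 to 0.67 (1.6 kb), and Bmpr1a from -0.55 to -0.17 (45.8 kb) and 0.24 to 0.63 (25.7 kb). The cause was not tested. A mean count of at least 50 leaves out 3 member peaks, and those values could not be computed. With 1 library left out, an unadjusted p under 0.05 was reached by between 0 and 2 member windows, 2 and 7 member peaks, and 0 and 9 pathway windows, and with the replicate block by 0, 6 and 2. Without LacZ-shRNA replicate 3 the member peaks numbered 7, and without LacZ-shRNA replicate 1 the pathway windows numbered 9.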
